A study of Mus musculus with 2 samples.

Results

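Genes of amino acid, sugar and monocarboxylate transporters were compared between natural killer (NK) cells of mouse liver that lack surface staining with the antibody DX5 (DX5- NK) and those that carry it (DX5+ NK). The genes were every symbol of the solute carrier families Slc1a, Slc2a, Slc3a, Slc5a, Slc6a, Slc7a, Slc16a, Slc36a, Slc38a and Slc43a that an Affymetrix probe set measured alone, 101 of the 18194 genes with such a probe set. Where a gene had several probe sets, the brightest one, by mean log2 intensity of the arrays, stood for it. Of the 101 symbols, 97 name transporters. The other 4 are the pseudogene Slc2a4rg-ps and the opposite-strand symbols Slc6a19os, Slc7a6os and Slc36a1os. Of these opposite-strand symbols, Slc7a6os is annotated as a protein-coding gene, and Slc6a19os and Slc36a1os as long non-coding RNAs. All 4 are kept in the counts and named where they enter one.

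Both populations came from untreated B6 wild-type mice and were sorted as NK1.1+ CD3- cells, so they share every gate except DX5, the antibody against integrin alpha 2. Each population was measured on 1 array, and the labels used here give neither the number nor the age of the mice. With 1 array per population no difference has a spread between samples, so none was tested and no p-value is given. In sorted bulk RNA, fewer cells that carry a transcript and less transcript per cell cannot be told apart.

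Cells take up sugars and amino acids through membrane carriers, since neither class of molecule crosses a lipid bilayer unaided at a useful rate. In lymphocytes the facilitative glucose carriers of the Slc2a family feed glycolysis, and lactate leaves through proton-coupled monocarboxylate carriers of the Slc16a family. Large neutral amino acids enter through CD98, a dimer of the heavy chain Slc3a2 and a light chain of the Slc7a family, and glutamine enters through Slc1a5 and the Slc38a carriers. In activated NK cells and T cells this supply is known to sustain the kinase complex mTORC1 and the transcription factor Myc.

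Across the transporters, 1 gene stood far higher in DX5- NK cells and 1 stood clearly lower, while the main carriers of glucose, glutamine and leucine differed by less than 1.6-fold. Slc16a10, a carrier of aromatic amino acids, was 7.19-fold higher in DX5- NK cells (intensity 1736 against 241 in DX5+ NK cells). Slc2a6, a glucose carrier of intracellular membranes, was 2.88-fold lower (444 in DX5- NK cells and 1278 in DX5+ NK cells). Slc3a2, the CD98 heavy chain, read 18990.1 in DX5- NK cells and 19042 in DX5+ NK cells.

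A gene counted as detected when its probe set exceeded the 95th percentile of 151 probe sets for sensory receptors (olfactory, vomeronasal, taste), opsins, lens crystallins and keratin-associated proteins, genes with little expected use in lymphocytes. That limit was an intensity of 76.0 for DX5- NK cells and 82.2 for DX5+ NK cells. Of the 101 members, 42 passed it in at least 1 population (32 in both, 4 in DX5- NK cells alone and 6 in DX5+ NK cells alone), which is 41.6% against 58.5% of all 18194 genes. Where only 1 array passed, the other value was set to its limit and the fold is a bound.

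Of the 42 detected members, 2 were at least 2-fold higher in DX5- NK cells (4.76%; 3.76% over 10648 detected genes) and 1 was at least 2-fold lower (2.38%; 5.65% over all detected genes). Together that is 7.14% of the members beside a background of 9.41%, so the transporters did not stand out by this count. The 2 higher symbols were Slc16a10 and the pseudogene Slc2a4rg-ps, so 1 of 40 detected transporters was past 2-fold in each direction. At 1.5-fold, 8 members were higher (19.0%; background 10.8%) and 7 lower (16.7%; background 14.1%), together 35.7% beside 24.9% of all detected genes. Of these 15 members, 4 were bounds. The split moved with the scaling, to 12 higher and 2 lower with spike-in scaling and 9 higher and 3 lower with quantile normalization. The median log2 ratio, DX5- minus DX5+, was -0.0020 over the 42 members, with a mean of 0.098, beside a median of -0.016 over all detected genes.

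The share past 1.5-fold was larger among dim probe sets than among bright ones. Of 20 detected members with a mean intensity under 200, 9 were past 1.5-fold (45.0%, beside 30.2% of 2918 genes as dim). Of 11 members with a mean from 200 to 1000, 27.3% were past 1.5-fold and 18.2% past 2-fold, beside 28.1% and 11.4% of 3898 genes. Those past 2-fold were Slc16a10 and Slc2a6. Of 11 members with a mean over 1000, 3 were past 1.5-fold (27.3%) and 0 past 2-fold, beside 17.6% and 6.26% of 3832 genes as bright. Between probe sets of the same gene the log2 ratio had an SD of 0.43 where the mean was under 200, 0.35 from 200 to 1000 and 0.26 over 1000. This SD is a spread between probe sets, which can read different parts of a transcript, so it is not noise alone. It leaves out differences between sorts, mice and labellings.

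**Figure D1:**
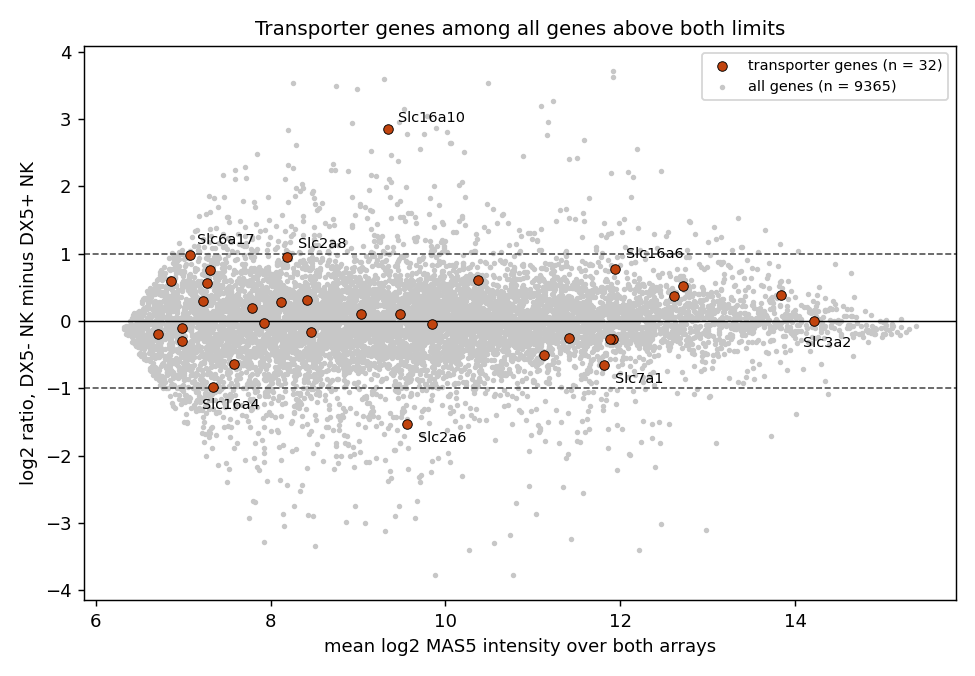
Log2 ratio (DX5- NK minus DX5+ NK, y axis) against the mean log2 intensity over both arrays (x axis) for 32 transporter genes (red) and all 9365 genes (grey) above the limit on both arrays; dashed lines mark 2-fold. Slc16a10 lies high above the upper line and Slc2a6 below the lower line, while the members at the bright end lie within 2-fold.

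Slc16a10 encodes TAT1, a uniporter that moves tryptophan, tyrosine and phenylalanine, and also thyroid hormone, down their gradients. Each of its 4 probe sets was above the limit on both arrays. They read 1736, 1461, 685 and 594 in DX5- NK cells, against 241, 218, 215 and 142 in DX5+ NK cells. Each probe set was higher on the DX5- array, by 7.19, 6.71, 3.19 and 4.18-fold in that order. The log2 ratio of the chosen probe set, 2.85, had rank 16 from the top among the 9365 genes above both limits, and the mean over the 4 probe sets was 2.33. T cell marker genes also summed higher on that array, to 17628 in DX5- NK cells and 2349.6 in DX5+ NK cells. Of the DX5- sum, Cd3g gave 14036 and Cd3d 2607. Of the 7 detected T cell genes, 6 were higher in DX5- NK cells and 1, Cd8b1, was lower, while Cd4 was below both limits. The part of T cell genes in the Slc16a10 value was not tested.

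Slc2a6 encodes GLUT6, a glucose carrier of lysosomal membranes that is also known from macrophages. Its 1 probe set gave a log2 ratio of -1.52, rank 178 from the bottom among the same genes. Macrophage marker genes summed to 876 in DX5- NK cells and 3649 in DX5+ NK cells, and their part in this value was not tested. Of the DX5+ sum, Lyz1 and Lyz2, lysozymes that neutrophils also express, gave 2069.8 and 956, and 8 of the 12 genes, C1qa, Clec4f and Timd4 among them, were below both limits. The proximal promoters of this gene and of Slc16a10 are shown because these are the members furthest apart in the opposite directions. Both are RefSeq windows of assembly GRCm38.p6, from 250 bases before to 50 bases after the annotated start, written 5′ to 3′ on the gene's strand. Slc16a10 lies at chr10:40142205-40142504 and Slc2a6 at chr2:27027949-27028248, both on the minus strand. Capitals mark the CCAAT box (CCAAT or its reverse complement ATTGG) and the GC box (GGGCGG or CCGCCC), letters bound by the general factors NF-Y and Sp1.
Slc16a10 promoter: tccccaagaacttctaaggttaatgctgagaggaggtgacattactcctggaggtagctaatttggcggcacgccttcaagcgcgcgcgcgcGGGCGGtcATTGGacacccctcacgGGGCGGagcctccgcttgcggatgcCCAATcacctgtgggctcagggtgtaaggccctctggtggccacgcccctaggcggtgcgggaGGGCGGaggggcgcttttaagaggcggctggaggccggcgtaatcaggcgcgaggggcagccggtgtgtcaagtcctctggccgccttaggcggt
Slc2a6 promoter: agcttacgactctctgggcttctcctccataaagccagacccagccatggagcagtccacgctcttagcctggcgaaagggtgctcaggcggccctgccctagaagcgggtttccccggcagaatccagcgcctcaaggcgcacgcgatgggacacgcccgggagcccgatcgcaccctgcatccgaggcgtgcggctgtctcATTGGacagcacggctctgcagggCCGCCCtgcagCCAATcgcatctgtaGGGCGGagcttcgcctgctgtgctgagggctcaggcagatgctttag

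The 2 windows were alike in these letters. Slc16a10 held 2 CCAAT boxes and 3 GC boxes in a window of 65.3% G and C, and Slc2a6 held 2 CCAAT boxes and 2 GC boxes in a window of 64.7%; no matches overlapped. Neither window held an E-box (CACGTG, bound by Myc and related factors), the amino acid response letters TGATGNAA or the T-box core GGTGTGA, on either strand, which says only that these letters are not in the windows. A RefSeq promoter was found for 74 of the 101 members and 29 of the 42 detected ones. Among those 29 genes the GC box was in 22 (75.9%, beside 68.2% of 8672 detected genes) and CCAAT in 13 (44.8%, beside 42.4%). The E-box was in 3 of them (10.3%, beside 11.9%), the amino acid response letters in 2 (6.90%, beside 2.70%) and the T-box core in 3 (10.3%, beside 4.05%). Over all 32851 promoter windows the 5 motifs, in the order GC box, CCAAT, E-box, amino acid response and T-box, were in 35.7%, 37.4%, 7.15%, 3.97% and 3.98%.

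**Figure D2:**
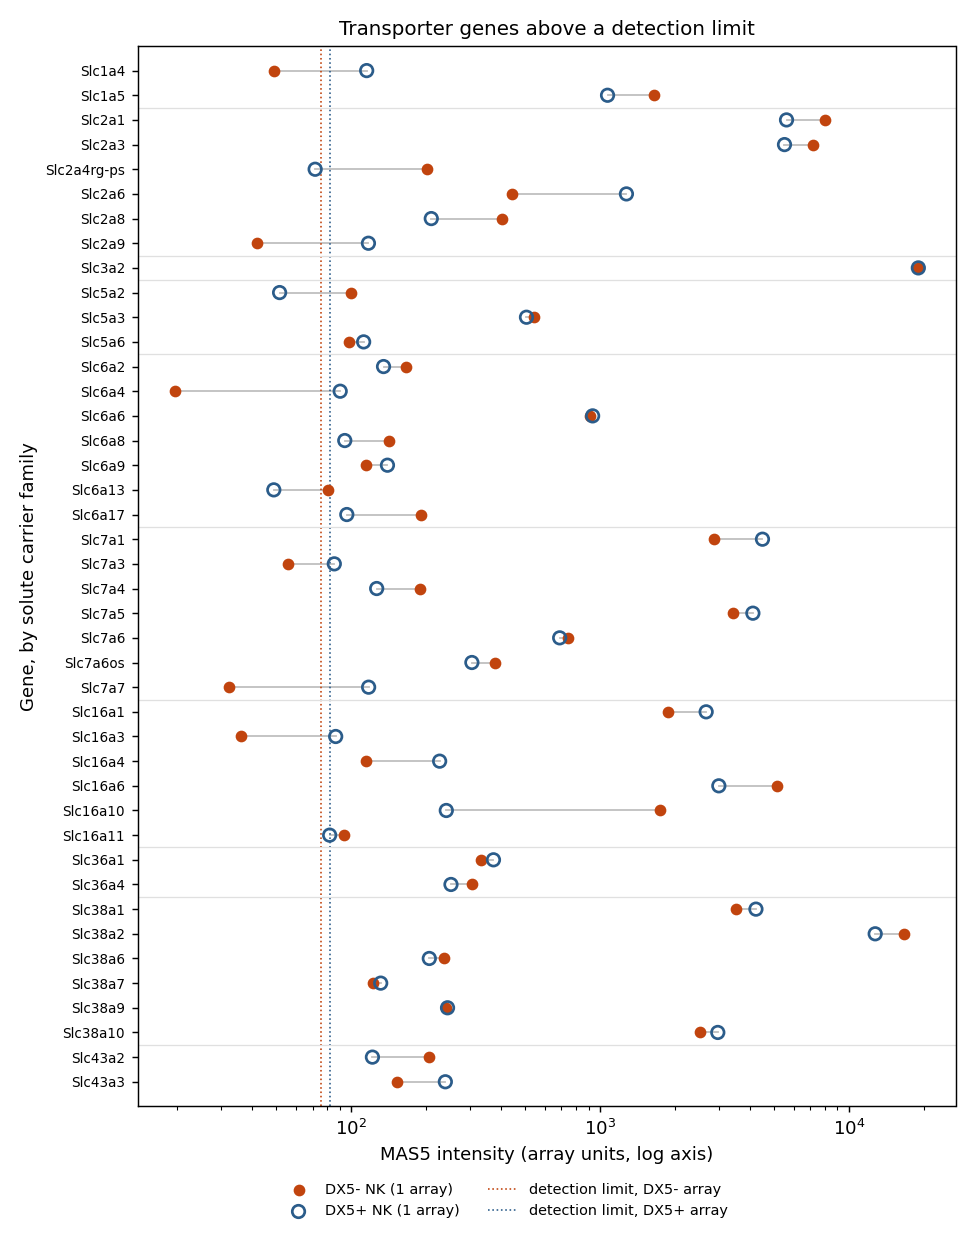
MAS5 intensity (x axis, log scale, array units) of the 42 transporter symbols detected on at least 1 array, grouped by family down the y axis; filled red points are the DX5- NK array, open blue points the DX5+ NK array, and dotted lines the detection limits. The lines that join the arrays are longest for Slc16a10 and Slc6a4, and the DX5- point of Slc6a4 lies below its limit.

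Glucose carriers of the cell surface were within 1.5-fold by their chosen probe sets. Slc2a1 (GLUT1), the widespread basal glucose carrier, read 8053 in DX5- NK cells and 5623 in DX5+ NK cells, a 1.43-fold difference. Its 3 probe sets were all higher on the DX5- array, by 1.43 to 1.58-fold. Slc2a3 (GLUT3), a high-affinity glucose carrier of neurons and leukocytes, read 7179 in DX5- NK cells and 5519 in DX5+ NK cells. That is 1.30-fold, and another bright probe set of Slc2a3 gave 1.31-fold; the remaining probe sets of this gene were below both limits, and with these averaged in the log2 ratio of Slc2a3 was -0.053.

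Slc2a8 (GLUT8), a carrier of intracellular membranes, read 405 in DX5- NK cells and 210.0 in DX5+ NK cells. At 1.93-fold it lay just under the 2-fold line, in the direction opposite to Slc2a6. Slc2a9, a urate carrier, read 41.7 in DX5- NK cells, below the limit, and 117 in DX5+ NK cells, so it was at least 1.54-fold lower. Another probe set of Slc2a9 was below both limits (65.3 in DX5- NK cells and 70.7 in DX5+ NK cells). The pseudogene Slc2a4rg-ps read 201 in DX5- NK cells and 71.7, below the limit, in DX5+ NK cells, at least 2.45-fold higher. With a limit at the 99th percentile its bound (log2 0.71) was under 2-fold. Slc2a4 (GLUT4), the insulin-responsive carrier of muscle and fat, and Slc2a2 (GLUT2), the carrier of hepatocytes, were below both limits, as were Slc2a5, Slc2a10, Slc2a12 and Slc2a13.

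The CD98 heavy chain and its light chains Slc7a5 and Slc7a6 differed by 1.20-fold or less. Beside the heavy chain Slc3a2 (log2 ratio -0.0040), the light chain Slc7a5 (LAT1), which imports leucine and other large neutral amino acids, read 3437 in DX5- NK cells and 4119 in DX5+ NK cells. Slc7a5 was thus the lower one on the DX5- array. Slc7a6 (y+LAT2), a light chain that exchanges cationic for neutral amino acids, read 741 and 689 in DX5- NK and DX5+ NK cells. Its other probe set went the opposite way, with 450.2 in DX5- NK cells and 501 in DX5+ NK cells.

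Slc7a7 (y+LAT1), the related light chain of gut, kidney and macrophages, read 32.2 in DX5- NK cells and 118 in DX5+ NK cells. It was at least 1.55-fold lower, on the edge of detection, and its other probe set was below both limits. The opposite-strand symbol Slc7a6os read 380.1 and 306 in DX5- NK and DX5+ NK cells. The heavy chain Slc3a1 and its light chains Slc7a9 and Slc7a13, known from the kidney, were below both limits, as were the light chains Slc7a8, Slc7a10, Slc7a11 (the cystine carrier xCT) and Slc7a12 and their relative Slc7a15.

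Among carriers of cationic amino acids, Slc7a1 (CAT1), the main arginine and lysine importer of many cells, read 2876 in DX5- NK cells and 4501 in DX5+ NK cells. This was 1.57-fold lower in DX5- NK cells, but the probe sets of the gene did not share a direction. Another bright probe set of Slc7a1 read 3601 in DX5- NK cells and 3155 in DX5+ NK cells, and a dim one 97.5 and 148. Slc7a3 (CAT3) read 55.8 in DX5- NK cells, below the limit, and 85.6 in DX5+ NK cells. Slc7a4, a relative of these carriers, read 188 in DX5- NK cells and 127 in DX5+ NK cells (1.49-fold higher). Slc7a2 and Slc7a14 were below both limits.

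The Slc1a and Slc38a families hold the main carriers of glutamine and small neutral amino acids. Slc1a5 (ASCT2), a sodium-dependent exchanger that brings in glutamine, read 1645 in DX5- NK cells and 1073 in DX5+ NK cells. It was 1.53-fold higher by this probe set and 1.07-fold higher by its other one. Slc1a4 (ASCT1), the related exchanger of alanine, serine and cysteine, read 48.9 in DX5- NK cells, below the limit, and 116 in DX5+ NK cells, at least 1.52-fold lower. Of the glutamate carriers of brain and retina, Slc1a2, Slc1a3, Slc1a6 and Slc1a7 were below both limits. Slc1a1 read 76.0 in DX5- NK cells, at the limit but not above it, and 35.2 in DX5+ NK cells, so it did not count as detected.

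Slc38a2 (SNAT2), a sodium-coupled importer of alanine and glutamine whose gene is known to respond to amino acid shortage, read 16678 in DX5- NK cells and 12774 in DX5+ NK cells. Its 3 probe sets gave 1.31, 1.40 and 1.39-fold, each higher on the DX5- array. Slc38a1 (SNAT1), its close relative, read 3529.6 in DX5- NK cells and 4237 in DX5+ NK cells, while its other probe set read 3409.9 and 2821. The log2 ratios of these 2 probe sets, -0.26 and 0.27, had opposite signs, so Slc38a1 has no settled direction. Slc38a1, Slc38a2 and Slc38a4 are neighbours on chromosome 15; Slc38a4, a carrier of liver, was below both limits.

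The remaining Slc38a genes differed little. Slc38a10 had 6 probe sets above both limits with log2 ratios from -0.58 to 0.27, and its chosen one read 2514 in DX5- NK cells and 2977 in DX5+ NK cells. Slc38a6 (SNAT6) read 237 in DX5- NK cells and 206 in DX5+ NK cells, but its other probe set read 8.40, below the limit, and 92.9. Slc38a7, a glutamine carrier of lysosomes, read 122 in DX5- NK cells and 132 in DX5+ NK cells. Slc38a3 and Slc38a5 were below both limits. Over the family, 6 of 9 genes were detected and 0 were past 1.5-fold, beside 24.9% of all detected genes. So few genes do not set the family apart from that share.

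**Figure D3:**
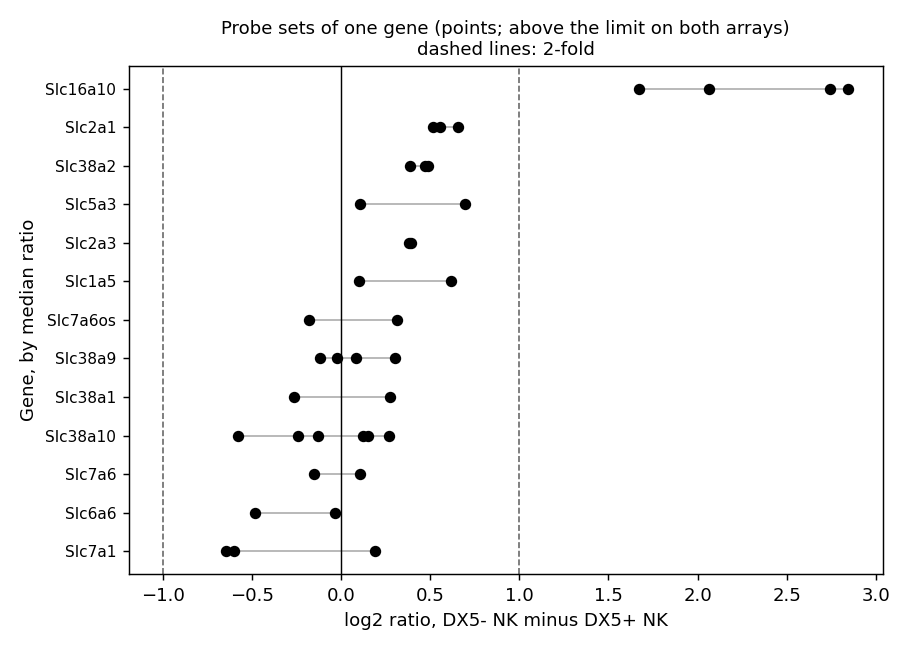
Log2 ratio (x axis, DX5- NK minus DX5+ NK) of each probe set above the limit on both arrays, for the 13 members with at least 2 such probe sets (y axis, by median); dashed lines mark 2-fold. All 4 points of Slc16a10 lie right of the 2-fold line, the points of Slc2a1, Slc2a3 and Slc38a2 lie close together above 0, and those of Slc7a1, Slc38a1 and Slc38a10 fall on both sides of 0.

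Where a gene had more than 1 probe set above both limits (13 members), the direction was shared by all of them in 7 (Slc16a10, Slc1a5, Slc2a1, Slc2a3, Slc38a2, Slc5a3 and Slc6a6) and was mixed in 6 (Slc38a1, Slc38a10, Slc38a9, Slc7a1, Slc7a6 and Slc7a6os). A further 50 members had 1 probe set in all, among them Slc2a6, Slc2a8, Slc3a2, Slc7a5 and Slc16a6, so for those genes no other probe set could be compared.

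Lysosomal carriers that take part in amino acid sensing were detected at similar intensity on both arrays. Slc38a9, a lysosomal carrier that signals arginine to mTORC1, read 240.4 in DX5- NK cells and 244 in DX5+ NK cells, with 4 probe sets from -0.12 to 0.30 in log2 ratio. Slc36a1 (PAT1), a proton-coupled exporter of small amino acids from lysosomes, read 334 and 373 in DX5- NK and DX5+ NK cells. Slc36a4, a carrier of proline and tryptophan, read 307 in DX5- NK cells and 252 in DX5+ NK cells. Slc36a2 and Slc36a3, the neighbours of Slc36a1 on chromosome 11, and the transcript Slc36a1os were below both limits.

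The facilitative carriers of the Slc43a family lay on opposite sides. Slc43a2 (LAT4), which lets branched-chain amino acids and phenylalanine out of cells, read 206 in DX5- NK cells and 122 in DX5+ NK cells, 1.69-fold higher. Another of its probe sets read 77.0 in DX5- NK cells and 28.9, below the limit, in DX5+ NK cells. Slc43a3, which carries purine bases, read 153 in DX5- NK cells and 239 in DX5+ NK cells, 1.56-fold lower. Both genes were dim, and Slc43a1 (LAT3) was below both limits.

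Other monocarboxylate carriers measured on both arrays differed by less than 2-fold. Slc16a1 (MCT1), which moves lactate and pyruvate with a proton in either direction, read 1880.1 in DX5- NK cells and 2673 in DX5+ NK cells, 1.42-fold lower. Slc16a3 (MCT4), the lactate exporter of glycolytic cells, was at the detection limit, with 36.1 in DX5- NK cells and 86.7 in DX5+ NK cells, at least 1.14-fold lower. Slc16a6 (MCT7), an exporter of the ketone body beta-hydroxybutyrate in zebrafish liver, read 5139 in DX5- NK cells and 3005 in DX5+ NK cells. It was 1.71-fold higher, the widest difference among the 11 members with a mean intensity over 1000.

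Slc16a4 (MCT5), a family member with no settled substrate, read 115 in DX5- NK cells and 227 in DX5+ NK cells. At 1.97-fold lower it lay just under the 2-fold line. Its other probe set was 51.0 in DX5- NK cells and 102.5 in DX5+ NK cells, at least 1.35-fold lower. Slc16a11 read 93.7 in DX5- NK cells and 82.0, below the limit, in DX5+ NK cells. Slc16a5, Slc16a7 (MCT2), Slc16a8 (MCT3), Slc16a9, Slc16a12, Slc16a13 and Slc16a14 were below both limits.

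Among the sodium- and chloride-coupled carriers of the Slc6a family, 7 of 21 symbols were detected, nearly all dim. Slc6a6, the taurine carrier, read 911 in DX5- NK cells and 935 in DX5+ NK cells. Slc6a17, a carrier of neutral amino acids into synaptic vesicles, read 190.5 and 96.1 in DX5- NK and DX5+ NK cells. At 1.98-fold higher it lay just under the 2-fold line, with the DX5+ value near the limit of 82.2. The other probe sets of Slc6a17 were below both limits, and with a 99th percentile limit its log2 ratio was a bound of 0.63. Slc6a8, the creatine carrier, read 142 and 94.3 in DX5- NK and DX5+ NK cells (1.51-fold higher), whereas its other probe set read 75.4 in DX5- NK cells and 139 in DX5+ NK cells.

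Slc6a9, a glycine carrier, read 114.5 in DX5- NK cells and 140.0 in DX5+ NK cells. Slc6a2, the noradrenaline carrier, read 167 and 135 in DX5- NK and DX5+ NK cells, and another of its probe sets 135.6 and 37.7, the second of these below the limit. Slc6a13, a carrier of the inhibitory transmitter GABA, read 80.7 in DX5- NK cells and 48.9, below the limit, in DX5+ NK cells. Slc6a4, the serotonin carrier, read 19.6 in DX5- NK cells, below the limit, and 90.4 in DX5+ NK cells, at least 1.19-fold lower. The transmitter, imino acid and intestinal carriers of the family, such as Slc6a3 (dopamine), Slc6a5 (glycine), Slc6a14, Slc6a19 and Slc6a20a, were among the 14 symbols below both limits.

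Of 13 Slc5a genes, 3 were detected and 0 were past 1.5-fold by their chosen probe sets, beside 24.9% of all detected genes. With 3 genes this is no trait of the family. Slc5a3, the sodium-coupled importer of myo-inositol, read 545 in DX5- NK cells and 507 in DX5+ NK cells. Another probe set of Slc5a3 read 162.5 in DX5- NK cells and 100.5 in DX5+ NK cells, 1.62-fold higher. Slc5a6, the importer of biotin and pantothenate, read 98.4 and 112 in DX5- NK and DX5+ NK cells. Slc5a2 (SGLT2), the glucose carrier of the kidney, read 100.1 in DX5- NK cells and 51.6, below the limit, in DX5+ NK cells. Slc5a1 (SGLT1), the intestinal glucose carrier, and the iodide carrier Slc5a5 were below both limits.

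**Figure D4:**
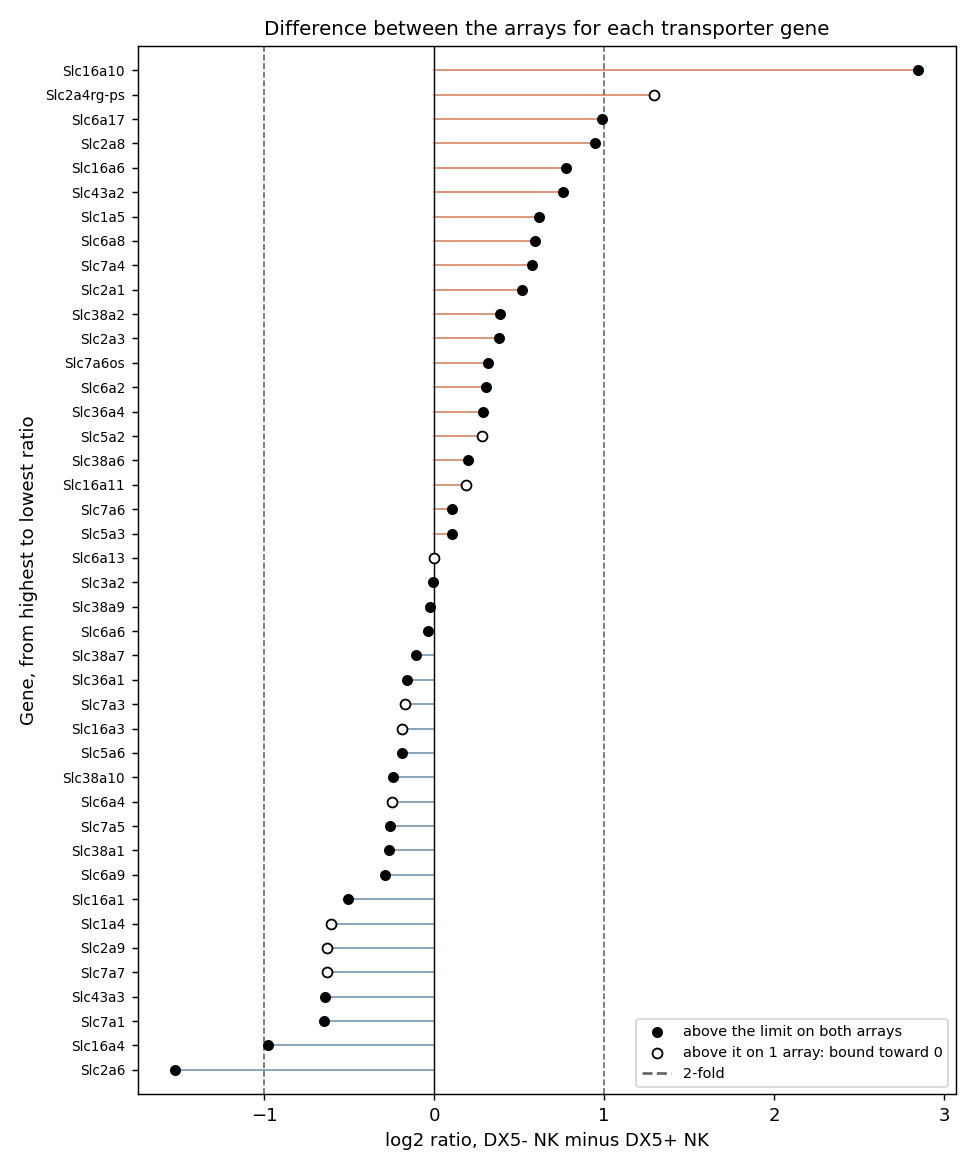
Log2 ratio (x axis, DX5- NK minus DX5+ NK) of the 42 detected symbols, from highest to lowest down the y axis; filled points were above the limit on both arrays, open points on 1 array (bounds), and dashed lines mark 2-fold. Slc16a10, Slc2a6 and, as an open point, the pseudogene Slc2a4rg-ps lie outside the lines. Slc2a8, Slc6a17 and Slc16a4 lie just inside them.

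Markers of the sorted cells and of other liver cells were read on the same arrays. All 10 NK cell genes with a probe set were above both limits, with 0 past 2-fold on the higher side and 2 on the lower side. The lower ones were Eomes, a T-box factor of conventional NK cells (1991 in DX5- NK cells and 16107 in DX5+ NK cells), and Prf1 (3108 and 8978). The activating receptor Ncr1 read 2389.7 in DX5- NK cells and 1788 in DX5+ NK cells. Of the 8 T cell genes with a probe set 7 were detected, and 4 of these, Cd3g (14036 in DX5- NK cells and 1072 in DX5+ NK cells) among them, were past 2-fold on the higher side although both sorts were CD3-. Of the 4 macrophage genes detected, 3 were past 2-fold on the lower side. Platelet genes summed to 1309.6 in DX5- NK cells and 5987 in DX5+ NK cells, with 7 of 8 past 2-fold on the lower side, and neutrophil genes to 3748.5 and 9639. Among the detected B cell, erythroid, endothelial and stellate cell genes (4, 2, 3 and 1), 0 were past 2-fold.

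Slc7a7, which macrophages are known to express, and Slc6a4, which platelets are known to express, were below the limit on the array with the smaller macrophage and platelet sums. The part of these cells in both values was not tested. Hepatocyte genes summed to 1459.7 in DX5- NK cells and 2257 in DX5+ NK cells, with 1 of 4 detected genes past 2-fold on the lower side. The hepatocyte glucose carrier Slc2a2 was below both limits, at 24.2 in DX5- NK cells and 5.90 in DX5+ NK cells.

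Other genes of nutrient use were read from 6 lists, to be set beside the shares of all detected genes past 2-fold (9.41%) and 1.5-fold (24.9%). For amino acid sensing and mTORC1, 28 of 28 genes on the array were detected, and the median log2 ratio was -0.24. Past 2-fold there were 0 genes on the higher side and 1 on the lower side, Depdc5, a subunit of the GATOR1 complex that restrains mTORC1 (127.5 in DX5- NK cells and 298 in DX5+ NK cells). At 1.5-fold, 2 genes were higher and 5 lower. For the amino acid response and nutrient transcription factors, the median over 19 detected genes was 0.080, with 3 genes past 2-fold on the higher side and 1 on the lower side, and 3 and 2 at 1.5-fold.

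The 3 higher genes of that list were Srebf2, a regulator of sterol synthesis (1228 in DX5- NK cells and 522 in DX5+ NK cells), Eif2ak3, the stress kinase PERK (12298 and 5458), and Ppp1r15a, which reverses the stress response (9986 and 4825). The lower gene was Tfeb, a regulator of lysosome genes, with 264 in DX5- NK cells and 623 in DX5+ NK cells. Myc read 4184 in DX5- NK cells and 3094 in DX5+ NK cells, Hif1a 6750.1 and 6386, and Atf4, which drives amino acid carrier genes in shortage, 14846 and 12796. These last 3 differed by less than 1.5-fold.

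Enzymes that act downstream of the carriers were in 3 of the lists. Among 21 detected enzymes of amino acid metabolism (median -0.16), 0 were past 2-fold on the lower side and 1 on the higher side. This was Arg1, which splits arginine (299 in DX5- NK cells and 82.6 in DX5+ NK cells). The DX5+ value of Arg1 lay just above the limit of that array, 82.2. At 1.5-fold 1 enzyme was higher and 4 were lower. Among 17 detected glycolysis genes (median -0.21), 0 were past 2-fold on the higher side and 1 on the lower side, Pfkfb3, which makes the activator of phosphofructokinase (307 in DX5- NK cells and 751 in DX5+ NK cells). At 1.5-fold 0 were higher and 4 lower. In the same list Hk2, which traps glucose after entry, read 1322 in DX5- NK cells and 1196 in DX5+ NK cells. Among 10 detected genes of lactate and pyruvate handling (median 0.21), 0 were past 2-fold on the lower side and 1 on the higher side, Pdk1, a kinase that blocks the entry of pyruvate into the citric acid cycle (656 in DX5- NK cells and 238 in DX5+ NK cells). At 1.5-fold 3 were higher and 0 lower. Ldha, which makes lactate, read 6727 in DX5- NK cells and 6350.2 in DX5+ NK cells.

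Partners that bring carriers to the membrane or remove them had 0 of 8 detected genes past 2-fold, 2 higher and 1 lower at 1.5-fold, and a median of -0.13. Bsg (basigin), the chaperone of Slc16a1 and Slc16a3, read 1239 in DX5- NK cells and 1356 in DX5+ NK cells, and Emb (embigin), another partner of monocarboxylate carriers, 8846 and 12014. Txnip, which drives the removal of Slc2a1 from the surface, read 9849 in DX5- NK cells and 10381 in DX5+ NK cells.

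**Figure D5:**
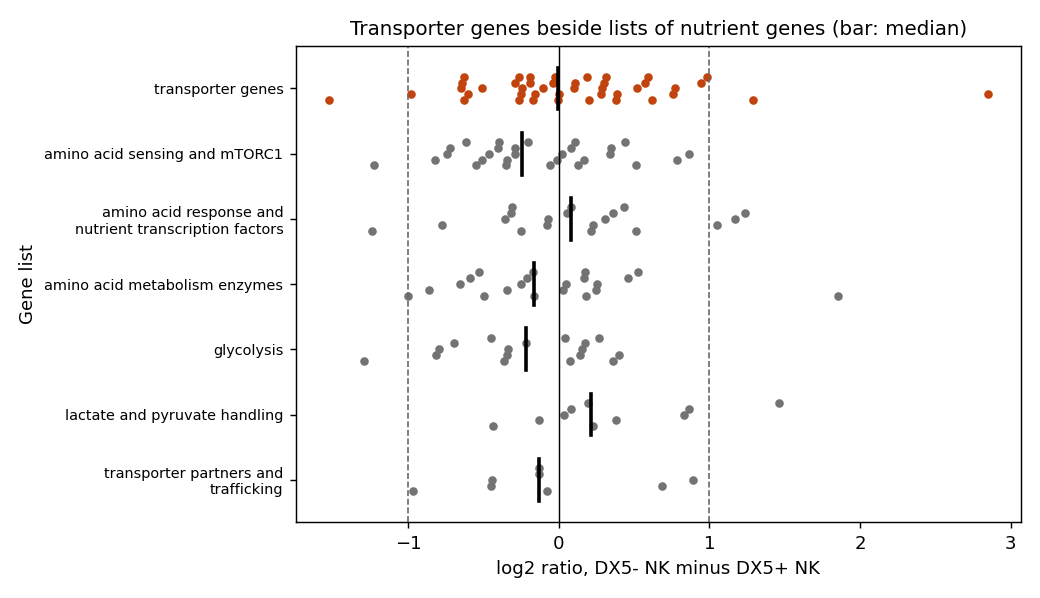
Log2 ratios (x axis, DX5- NK minus DX5+ NK) of the detected transporter symbols (red) and of the detected genes of 6 nutrient gene lists (grey), each list on its own row of the y axis; black bars are medians and dashed lines 2-fold. The medians of the 6 lists lie between -0.24 and 0.21, and Slc16a10 is the point furthest right.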

How the data were processed

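The samples were total RNA from 1 sample of sorted DX5- NK cells and 1 of DX5+ NK cells, labelled with biotin and hybridised to 1 Affymetrix mouse array each. The deposited intensities were made by the authors with MAS5, per the submitters' processing notes, which name no version or setting. Values are linear and cover 45101 probe sets, from 0.1 to 43869.7 units. The trimmed mean, without the lowest and highest 2% of values, was 500.0 on both arrays, so each array had been scaled to 1 target. Median intensity was 70.3 (DX5-) and 78.0 (DX5+). No detection calls were used.

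Genes were named from the platform annotation: 34958 probe sets had 1 symbol, 932 several and 9211 none. Probe sets with several symbols were not used, which left out 1 that names Slc1a2. All 101 members matched RefSeq (GRCm38.p6) by gene identifier and symbol. Intensities were taken to log2 with no offset (Python 3.11.15, numpy 2.4.6, pandas 2.3.3); a bound on the wrong side counted as a ratio of 1. The genes Crybg1, Crybg2 and Crybg3, which are not lens crystallins, stayed out of the detection limit. Levels are not compared between probe sets. Steps were tested on simulated data. The number of arrays limits precision.

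Members, lists and rules were chosen with earlier results of these arrays known. Every detected member is named; pathway genes are named where past 2-fold, with 8 others set beforehand (Bsg, Emb, Txnip, Myc, Hif1a, Atf4, Ldha and Hk2). Alternatives changed the scaling, the limit, the probe set rule and the offset. Marker genes are named as examples chosen after their values were seen.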

Additional observations from a re-analysis of the deposited data

How the results depend on the processing

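No paired analysis was possible because each group held 1 array, and for the same reason no array could be left out. Slc16a10 and Slc2a6 were past 2-fold in their directions under all 11 alternatives, but most of these could not move their values. The changed limits and leaving out the 4 symbols that are not transporters left both values as they were. The probe set rules moved only Slc16a10. Both values moved with the scalings and the offset, to log2 ratios from 2.77 to 3.06 for Slc16a10 and from -1.51 to -1.31 for Slc2a6. The total of 3 members past 2-fold became 4 with median centring and with the mean over probe sets. It became 5 with quantile normalization and with spike-in scaling, and 6 with a 90th percentile limit. With no limit it became 33, where members at noise level enter by construction. It became 2 with a 99th percentile limit, with the Crybg genes in the limit and without the 4 symbols that are not transporters. The 2 higher members became 3 with median centring, which added Slc6a17. They became 4 with quantile normalization and with spike-in scaling, which added Slc2a8 and Slc6a17, and 15 with no limit. They became 1 with a 99th percentile limit, and also under the choices made after the data were seen, a limit with the Crybg genes and leaving out the 4 symbols that are not transporters. The 1 lower member became 4 with a 90th percentile limit, which added Slc1a4, Slc2a9 and Slc7a7, 18 with no limit and 2 with the mean over probe sets, which added Slc16a1 through a probe set below both limits. With no limit, 54 members were past 1.5-fold, and with the mean over probe sets 9, against 15. With the mean over probe sets the log2 ratio of Slc16a10 was 2.33; the bound for Slc2a4rg-ps was 0.71 with a 99th percentile limit and 0.92 with the Crybg genes. The split at 1.5-fold, 8 higher and 7 lower, became 12 and 2 with spike-in scaling and 9 and 3 with quantile normalization. Spike-in scaling moved the median of all genes to 0.19 and that of the members to 0.20, and 64.0% of all genes past 2-fold were then higher in DX5- NK cells, against 39.9%. The sign of 6 members turned under a scaling (Slc36a1, Slc38a7, Slc38a9, Slc3a2, Slc5a6 and Slc6a6), 0 of them 1.5-fold apart. All 18 spike-in probe sets behind the spike-in scaling read lower in DX5- NK cells (median log2 ratio -0.22). Several of them measure the same spiked transcript on the same arrays, so they are not independent of each other.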
